A study of Rattus norvegicus with 4 samples.

Results

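The genes described here build the extracellular matrix of the uterine muscle wall or bind cells to it. They were taken as every probe set whose single annotated gene symbol begins with Col and a digit, Lama, Lamb, Lamc, Itga or Itgb, together with 21 matrix genes chosen by name. This gave 50 of the 4736 genes that the array names by a single symbol, read by 83 of its 8799 probe sets. Of the 21 names, 18 were found, while Fbn1, Thbs1 and Thbs2 were not analysed here. A probe set is a group of short oligonucleotides meant to read 1 transcript, though some hold sequence shared between transcripts. Of the 50 genes, 19 had more than 1 probe set, so probe sets of a gene are not independent.

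The samples were myometrium, the smooth muscle layer of the uterus, from ovariectomized rats 60 days old, and surgery preceded treatment by 1 week in all groups. There were 4 groups, each read on 1 array with RNA pooled from 6 animals. These were estradiol benzoate, an ester that slowly releases estradiol, at 10 µg per kg after 24 h, its vehicle after 24 h, the same dose after 6 h, and vehicle after 6 h. Pooling hides the animals and 1 array per group leaves no replicate error, so differences within a time were not tested. In such bulk tissue, fewer cells of a type and less RNA per cell cannot be told apart.

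Collagens are trimers wound into a triple helix, and the fibrillar types form the load-bearing fibres while network types such as type IV build basement membranes. Laminins, trimers of an alpha, a beta and a gamma chain, are the other scaffold of basement membranes, the sheets that surround each smooth muscle cell. Integrins are pairs of an alpha and a beta chain that span the cell membrane and couple this matrix to the cytoskeleton. The uterine matrix is known to be remodelled under ovarian hormones and in pregnancy, when the wall has to stretch and later contract.

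Some arrays stood apart from their labels or from the others. Expression of Igf1, Pgr, S100g and Hsd11b2, known estrogen-induced genes of the rat uterus, was 2.74- to 7.79-fold higher with estradiol at 24 h. On the array labelled estradiol at 6 h the same 4 genes were 5.79- to 11.2-fold under the one labelled control, so directions at 6 h follow the labels and go against these genes. The wash record of the 24 h control array ended with a communication error, and 186 of 6157 probe sets lay at least 2-fold under all 3 other arrays there. Arrays of 1 time shared a scan day, and these 2 factors cannot be told apart. All 11 smooth muscle markers on the array were above the signal floor, among them Acta2, the smooth muscle actin, at 17195 with estradiol and 16652 with vehicle at 24 h, and 10961 on the estradiol-labelled and 13964 on the control-labelled array at 6 h. With estradiol at 24 h, 0 of the 11 passed 2-fold upwards and 1 downwards, and at 6 h 1 and 0. Over all probe sets, taking the brightest per gene, 7.92% passed upwards and 8.04% downwards at 24 h, and 6.32% and 5.29% at 6 h. Epithelial markers differed as well, and their signals over 8 genes summed to 3844 with estradiol and 1536 with vehicle at 24 h, and 981 on the estradiol-labelled and 2216 on the control-labelled array at 6 h. The keratins Krt8, Krt18 and Krt19, the adhesion molecule Epcam and the tight junction protein Cldn3 were at least 2-fold higher with estradiol at 24 h, and Lcn2 at least 2-fold lower. At 6 h, 0 of the 8 were higher and 4 lower with the estradiol label. Epcam lay under the floor on both arrays at 6 h. The part of these markers in the results below was not tested.

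Signals are the deposited MAS5 values at a trimmed mean of 500, and the floor is the 40th percentile of each array, between 89.5 and 108 signal units. Above the floor on at least 1 array were 72 of the 83 probe sets, for 45 of the 50 genes, and 56 were above it on all 4 arrays. The 11 under it throughout were both probe sets of Col2a1 and of Col11a1, cartilage collagens, 1 of Col10a1, Col9a1, Lama5 and Itgam, 2 of Itgae and 1 of Tnc. A probe set counted as different when 1 array was at least 2-fold brighter and above its floor. A fold against an array under its floor is a bound and is written as at least N-fold.

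At 24 h the matrix genes with the greatest differences were Efemp1 and Postn, low with estradiol, and Col15a1, Spon1, Sparc, Vcan and Loxl1, high with estradiol by at least 1 of their probe sets. For Col15a1, Sparc and Loxl1 that probe set had its lowest signal on the 24 h control array. The other probe sets of Sparc and Loxl1 did not pass the rule at 24 h. In all, 6 of the 72 probe sets were at least 2-fold higher with estradiol, or 8.33%, against 8.3% of all probe sets. The 6 lower ones were also 8.33%, against 8.36% of all probe sets. Both shares were near the background, so as a class these genes differed about as often as others. Scaling all arrays to 1 median, which shifts every 24 h log2 difference by 0.14, made the split 12 higher against 5 lower. Over all probe sets that scaling gave 10.2% higher and 5.98% lower, a shift in the same direction. The log2 differences of the members at 24 h had an SD of 1.06, against 0.788 over all 6157 probe sets. At 6 h the SD was 0.597 for members, against 0.696 for all, and between the controls 0.793, against 0.818. Members were thus not wider in these comparisons, but they were in the remaining pairs of arrays. For estradiol at 24 h over the 6 h control the SD was 0.875 for members, against 0.734 for all. For the estradiol label at 6 h over the 24 h control it was 0.823, against 0.656, without the estradiol array at 24 h. Members were also wider between the estradiol-labelled arrays. The wider spread was therefore not particular to estradiol against control at 24 h. Against the 6 h control, whose label the 4 estrogen targets contradict, estradiol at 24 h was higher in 17 members, where 6.2% of all probe sets were, and lower in 6, where 9.99% were. Of the 12 probe sets, 8 differed the same way there by at least 2-fold.

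Efemp1, also called fibulin-3, is a secreted glycoprotein of elastic fibres and basement membranes. Its first probe set read 470.0 with estradiol and 4250.1 with vehicle at 24 h, and 3308 on the estradiol-labelled and 1763 on the control-labelled array at 6 h. The second read 116 with estradiol and 1193 with vehicle at 24 h, and 695 on the estradiol-labelled and 267 on the control-labelled array at 6 h. In both the estradiol array at 24 h was the lowest and the control at 24 h the highest, and estradiol lay 9.04-fold lower and 10.3-fold lower. Against the 6 h control, whose label the 4 estrogen targets contradict, the same array was 3.75-fold lower and 2.3-fold lower. The 6 h control also differs in time and scan day, so it is no second control for 24 h. Both probe sets carry the accession of 1 transcript, so they are not independent.

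Postn, periostin, binds collagen and is made by fibroblast-like cells in tissues that bear load. Its 1 probe set read 1070.2 with estradiol and 5270.4 with vehicle at 24 h, and 5787 on the estradiol-labelled and 2948 on the control-labelled array at 6 h. It was 4.92-fold lower at 24 h and 2.75-fold lower when the 6 h control was used. The estradiol array at 24 h was thus the lowest of the 4 for both genes, with the control label at 6 h second lowest.

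The promoters of Efemp1 and Postn are shown because these are the members whose signal on the estradiol array at 24 h was at least 2-fold under each of the other 3 arrays. They run from 250 bases before to 50 bases after the annotated start in RefSeq's GRCr8 table. Capitals mark GGTCA, the core motif that estrogen receptors bind, or GGGCGG, the GC box bound by Sp1-type factors, each on either strand.
Efemp1, GRCr8 chr14:106811614-106811913, plus strand: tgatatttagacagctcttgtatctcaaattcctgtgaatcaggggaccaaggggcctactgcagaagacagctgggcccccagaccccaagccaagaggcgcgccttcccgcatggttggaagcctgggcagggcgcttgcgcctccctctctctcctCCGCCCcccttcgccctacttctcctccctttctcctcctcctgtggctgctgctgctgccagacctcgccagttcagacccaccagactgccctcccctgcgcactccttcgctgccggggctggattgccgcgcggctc
Postn, GRCr8 chr2:140677811-140678110, plus strand: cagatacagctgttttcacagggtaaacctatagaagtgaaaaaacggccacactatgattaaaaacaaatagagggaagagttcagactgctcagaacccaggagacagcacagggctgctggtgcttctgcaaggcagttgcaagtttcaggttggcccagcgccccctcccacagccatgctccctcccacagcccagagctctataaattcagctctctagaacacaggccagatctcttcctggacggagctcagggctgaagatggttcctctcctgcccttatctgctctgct
The Efemp1 window held 1 GC box and no core motif, and the Postn window held neither motif.

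Spon1, Vcan and Fmod stood highest on the estradiol array at 24 h against all 3 other arrays. Spon1, or F-spondin, a secreted protein known from axon guidance, read 711 with estradiol and 110.1 with vehicle at 24 h, and 72 on the estradiol-labelled and 104 on the control-labelled array at 6 h. Both arrays at 6 h were under their floors. Estradiol was 6.46-fold higher at 24 h and at least 6.57-fold higher when the 6 h control was used.

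Vcan, versican, is a large chondroitin sulfate proteoglycan that binds hyaluronan and loosens the matrix. It read 586 with estradiol and 152 with vehicle at 24 h, and 48.9 on the estradiol-labelled and 111 on the control-labelled array at 6 h, which is 3.87-fold higher with estradiol at 24 h. The estradiol-labelled array at 6 h was under the floor, and the control-labelled one was just above it. Against the 6 h control estradiol at 24 h was 5.28-fold higher.

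Fmod, fibromodulin, is a small leucine-rich proteoglycan that binds collagen fibrils. Its first probe set read 598 with estradiol and 270.0 with vehicle at 24 h, and 217 on the estradiol-labelled and 319.6 on the control-labelled array at 6 h, and was 2.22-fold higher with estradiol at 24 h. Its second read 368 with estradiol and 269 with vehicle at 24 h, and 236 on the estradiol-labelled and 184 on the control-labelled array at 6 h, and was 1.37-fold higher, under the 2-fold rule. Both were highest on the estradiol array at 24 h, but the first was under 2-fold against the 6 h control.

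The Vcan and Fmod promoters are shown for comparison, as genes at least 2-fold higher with estradiol at 24 h by a probe set for which the 24 h control was not the lowest array.
Vcan, GRCr8 chr2:22595906-22596205, minus strand: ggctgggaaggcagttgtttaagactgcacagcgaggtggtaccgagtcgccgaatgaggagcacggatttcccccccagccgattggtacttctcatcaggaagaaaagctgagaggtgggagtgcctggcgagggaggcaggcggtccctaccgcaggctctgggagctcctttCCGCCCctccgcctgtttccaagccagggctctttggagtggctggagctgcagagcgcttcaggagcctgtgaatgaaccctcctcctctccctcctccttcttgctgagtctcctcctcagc
Fmod, GRCr8 chr13:48045317-48045616, plus strand: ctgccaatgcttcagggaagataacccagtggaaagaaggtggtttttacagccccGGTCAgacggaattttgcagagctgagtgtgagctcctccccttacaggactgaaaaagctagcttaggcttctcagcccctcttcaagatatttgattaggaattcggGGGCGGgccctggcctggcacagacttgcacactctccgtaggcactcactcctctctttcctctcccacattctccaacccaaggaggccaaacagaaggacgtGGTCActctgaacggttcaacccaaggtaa
The Vcan window held 1 GC box and no core motif, while Fmod held 2 core motifs and 1 GC box. Windows of 300 bases were found for 34 of the 50 genes. The full palindrome of estrogen response elements, GGTCA then NNN then TGACC, was in 0 of these 34 and in 9 of 33469 windows of all genes. The core motif was in 5 of 34, or 14.7%, against 40.5% of all windows, and the GC box in 17 of 34, or 50%, against 33.1%. The median share of G and C was 56.8% in the member windows and 51.7% in all. Among the 9 genes with a window and a 2-fold difference at 24 h, 2 held the core motif and 5 the GC box. The palindrome contains the core motif, and no other searched motifs overlap in their letters.

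**Figure D1:**
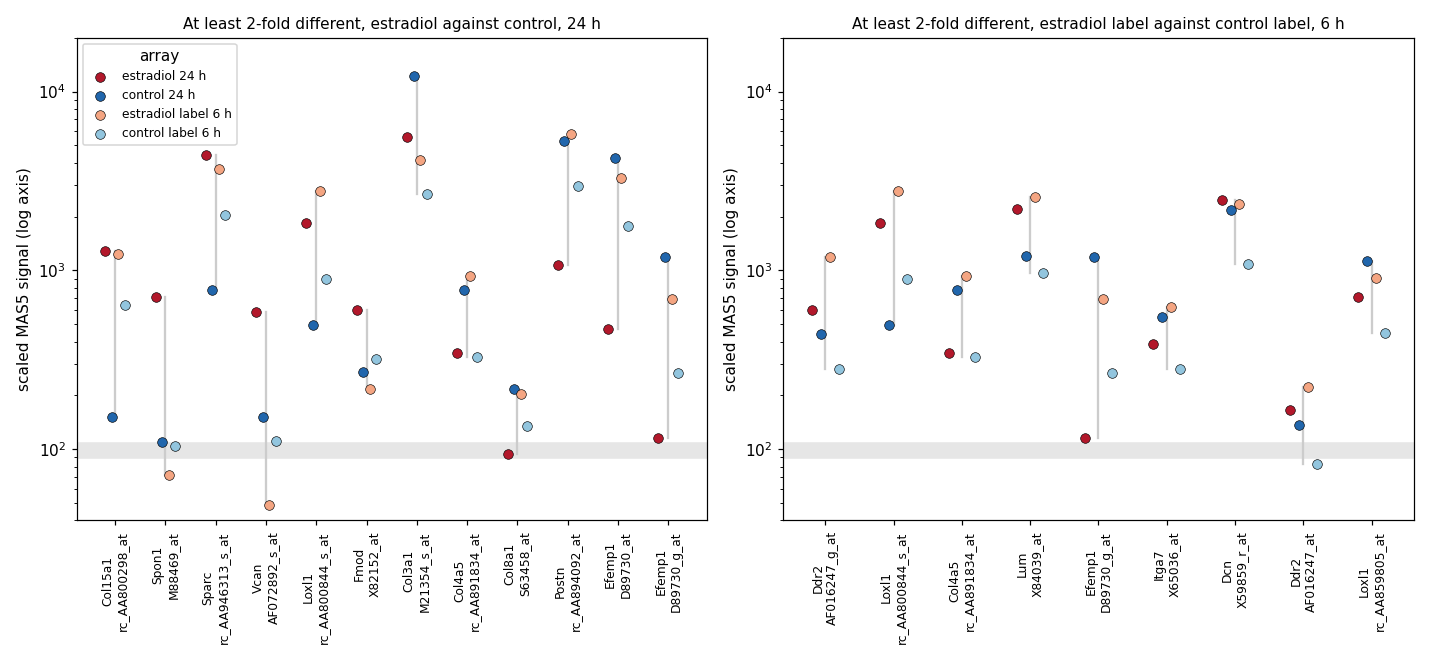
Signals of the member probe sets that differed at least 2-fold between estradiol and control at 24 h (left, 12 probe sets) or between the arrays labelled so at 6 h (right, 9 probe sets), on a log axis of scaled MAS5 signal, with 1 point for each of the 4 arrays and the range of the floors in grey. Efemp1 and Postn are lowest on the estradiol array at 24 h, Spon1, Vcan and Fmod highest there, and Col15a1 and 1 Sparc probe set are low on the 24 h control array alone.

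The remaining 3 higher probe sets at 24 h had their lowest signal on the 24 h control array. Col15a1, whose product is a basement membrane collagen that carries glycosaminoglycan chains, read 1287 with estradiol and 152 with vehicle at 24 h, and 1239 on the estradiol-labelled and 643 on the control-labelled array at 6 h. The estradiol-labelled array at 6 h was as bright as estradiol at 24 h, and the 24 h control was 4.22-fold under the nearest of the other 3 arrays. Estradiol was 8.46-fold higher against the 24 h control and 2.0-fold higher against the 6 h control.

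Sparc, or osteonectin, a collagen-binding matricellular protein, had 4 probe sets that disagreed. The one that passed the rule read 4419 with estradiol and 779 with vehicle at 24 h, and 3716 on the estradiol-labelled and 2047 on the control-labelled array at 6 h, which is 5.67-fold higher with estradiol at 24 h. Its 24 h control lay 2.63-fold under the nearest other array. The other 3 were 1.1-fold higher, 1.3-fold higher and 1.05-fold lower at 24 h, with 24 h control signals of 7079.6, 8468 and 3340.1. The brightest of them read 10989.8 with estradiol and 8468 with vehicle at 24 h, and 7454 on the estradiol-labelled and 7813 on the control-labelled array at 6 h. So 1 of 4 Sparc probe sets gave the difference and the others showed none of that size.

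Col15a1 and this Sparc probe set were the only 2 of 72 members, or 2.78%, whose 24 h control signal was at least 2-fold under all 3 other arrays, against 3.02% of all probe sets. Both count as higher with estradiol at 24 h by construction. Next below that line came Itga2b at 1.85-fold, Loxl1 at 1.81-fold, Bgn at 1.66-fold and Itgb7 at 1.58-fold, each by 1 of their probe sets where there were several. Itgb7 was under the floor on the 24 h control, so its value is a bound. Without probe sets of this kind, 4 of 70 members were at least 2-fold higher with estradiol at 24 h, against 5.44% of all probe sets that remained.

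Loxl1 oxidises lysines of elastin and collagen so that they can be crosslinked, and its 2 probe sets pointed in opposite directions at 24 h. One read 1852 with estradiol and 497 with vehicle at 24 h, and 2797 on the estradiol-labelled and 898 on the control-labelled array at 6 h, which is 3.73-fold higher with estradiol at 24 h and 3.12-fold higher with the estradiol label at 6 h. The other read 711 with estradiol and 1133 with vehicle at 24 h, and 913 on the estradiol-labelled and 449.6 on the control-labelled array at 6 h, which is 1.59-fold lower at 24 h, short of the rule, and 2.03-fold higher at 6 h. The 24 h control was the lowest array for the first and the highest for the second. The direction at 24 h was therefore not settled for Loxl1. Lox, the founding member of that enzyme family, had 4 probe sets between -0.58 and 0.17 on the log2 scale at 24 h, all under the rule.

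**Figure D2:**
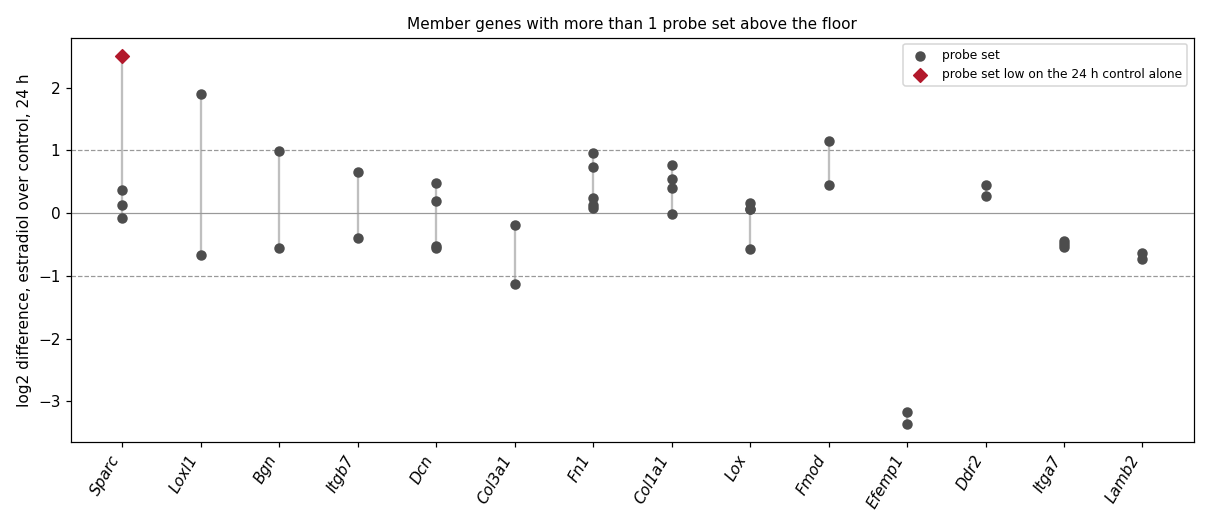
Log2 difference of estradiol over control at 24 h for each probe set of the 14 member genes with more than 1 probe set above the floor on either array, with dashed lines at 2-fold. Sparc and Loxl1 span more than 2 log2 units between their own probe sets, while the 2 probe sets of Efemp1 lie together below -3.

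The fibrillar collagens of the muscle wall, types I, III and V, were above the floor on all 4 arrays and under 2-fold at 24 h in all but 1 probe set. Of 9 probe sets above the floor, 0 were at least 2-fold higher and 1 lower with estradiol at 24 h. Over all probe sets 8.3% were higher and 8.36% lower. The median log2 difference of the 9 was 0.30, against -0.17 over all probe sets. Col1a1, the main chain of type I collagen, had 4 probe sets, and the one with the greatest difference read 16414 with estradiol and 9607 with vehicle at 24 h, and 5736 on the estradiol-labelled and 6734 on the control-labelled array at 6 h. It was 1.71-fold higher at 24 h. The brightest Col1a1 probe set read 16528 with estradiol and 16629 with vehicle at 24 h, and 10888 on the estradiol-labelled and 11869 on the control-labelled array at 6 h. This and the remaining Col1a1 probe sets lay between -0.01 and 0.54 on the log2 scale. The partner chain Col1a2 read 15492 with estradiol and 12606 with vehicle at 24 h, and 8726 on the estradiol-labelled and 10040.3 on the control-labelled array at 6 h. Both genes were brighter on each array at 24 h than on the array of the same label at 6 h.

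Col5a1, a chain of the type V collagen that limits fibril width, read 3406 with estradiol and 1783 with vehicle at 24 h, and 1283 on the estradiol-labelled and 1639 on the control-labelled array at 6 h, and was 1.91-fold higher at 24 h, just under the rule. Col5a2, its partner, read 3450.5 with estradiol and 5018 with vehicle at 24 h, and 4214 on the estradiol-labelled and 2677 on the control-labelled array at 6 h, and was 1.45-fold lower. The 2 chains of type V thus leaned opposite ways, neither past 2-fold.

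Col3a1, which forms thin fibrils in distensible tissue, was the 1 fibrillar collagen past the rule, by 1 of 2 probe sets. That one read 5589 with estradiol and 12207 with vehicle at 24 h, and 4124 on the estradiol-labelled and 2676 on the control-labelled array at 6 h, which is 2.18-fold lower with estradiol at 24 h. The 24 h control was the highest array by 2.18-fold over the next. Under the common-median scaling this was short of 2-fold, and set against the 6 h control the estradiol array was 2.09-fold higher instead. The other probe set read 13039.7 with estradiol and 14944 with vehicle at 24 h, and 8599 on the estradiol-labelled and 9415 on the control-labelled array at 6 h, and was 1.15-fold lower at 24 h.

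Among the network and other collagens, 1 of 7 probe sets was higher at 24 h, that of Col15a1, and 2 lower, against 8.3% and 8.36% of all probe sets. Col4a5, a type IV chain of basement membranes, read 347 with estradiol and 782 with vehicle at 24 h, and 929.6 on the estradiol-labelled and 326 on the control-labelled array at 6 h. It was 2.25-fold lower with estradiol at 24 h and 2.85-fold higher with the estradiol label at 6 h. Col8a1, a short-chain collagen of vessels and smooth muscle, read 93.8 with estradiol and 217 with vehicle at 24 h, and 203 on the estradiol-labelled and 134 on the control-labelled array at 6 h, and was 2.31-fold lower at 24 h. Both lost the 2-fold difference against the mean of both controls, a setting that holds the doubted 6 h label. Col12a1, which decorates fibrils, was 1.21-fold higher, and Col4a3, Col10a1 and Col26a1 were 1.11-fold lower, 1.65-fold lower and 1.86-fold lower at 24 h, under the rule.

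Laminins showed no 2-fold difference at either time in 6 probe sets above the floor. Over all probe sets 8.3% were higher and 8.36% lower at 24 h, and 6.94% and 5.38% at 6 h. With so few laminin probe sets, a departure from those shares was not tested. Lamb2, a beta chain, read 2292 with estradiol and 3804 with vehicle at 24 h, and 4168 on the estradiol-labelled and 3464 on the control-labelled array at 6 h by 1 probe set and was 1.66-fold lower at 24 h, and its other probe set was 1.56-fold lower. Lamc1, the most widely used gamma chain, read 1278 with estradiol and 1616 with vehicle at 24 h, and 1181 on the estradiol-labelled and 1143 on the control-labelled array at 6 h, and was 1.26-fold lower. All 3 probe sets were lower with estradiol at 24 h and higher with the estradiol label at 6 h, by less than 2-fold each. The alpha chains Lama1, Lama2 and Lama3 were above the floor on 1 or 2 arrays only.

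Integrins also showed 0 of 13 probe sets past the rule at 24 h, where 8.3% of all probe sets were higher and 8.36% lower. Whether 0 of 13 differs from those shares was not tested. Itgb1, the beta chain shared by most matrix-binding integrins, read 6697 with estradiol and 5640.3 with vehicle at 24 h, and 6580.4 on the estradiol-labelled and 4464 on the control-labelled array at 6 h. Itga1, which pairs with it in a collagen receptor, read 3894 with estradiol and 2489 with vehicle at 24 h, and 4197 on the estradiol-labelled and 3631 on the control-labelled array at 6 h, and was 1.56-fold higher at 24 h. Itga7, the laminin receptor chain of muscle, read 387 with estradiol and 546 with vehicle at 24 h, and 628 on the estradiol-labelled and 282 on the control-labelled array at 6 h by its first probe set. It was 1.41-fold lower with estradiol at 24 h, under the rule, and 2.23-fold higher with the estradiol label at 6 h, but its second probe set was only 1.3-fold higher at 6 h. Itgb4, known from epithelial hemidesmosomes, read 381 with estradiol and 601 with vehicle at 24 h, and 669 on the estradiol-labelled and 359 on the control-labelled array at 6 h, and was 1.58-fold lower at 24 h. Itga2b and Itgb3, which together form the platelet fibrinogen receptor, were 1.85-fold higher and 1.3-fold lower at 24 h. Itga8 and the third Itga7 probe set were above the floor on the 24 h control alone, Itgae, an epithelium-binding lymphocyte integrin, by 1 of 3 probe sets on 1 array, and Itgav, of vitronectin receptors, was 1.16-fold lower at 24 h. Itgam, a macrophage integrin, was under the floor on all 4 arrays, and Itgb7, of lymphocyte integrins, was at least 1.58-fold higher by 1 probe set and 1.32-fold lower by the other.

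Among fibronectin and elastic fibre genes other than Efemp1, no probe set passed the rule at either time. The shares over all probe sets were 8.3% higher and 8.36% lower at 24 h, and 6.94% and 5.38% at 6 h. Fn1, fibronectin, which links integrins to collagen, had 5 probe sets, all higher with estradiol at 24 h by 1.06- to 1.95-fold, 2 of them as bounds. The brightest read 7760.3 with estradiol and 6550.4 with vehicle at 24 h, and 6121 on the estradiol-labelled and 6806 on the control-labelled array at 6 h. The one with the greatest difference read 828 with estradiol and 424 with vehicle at 24 h, and 175 on the estradiol-labelled and 173 on the control-labelled array at 6 h, with both arrays at 24 h over both at 6 h. Eln, the elastin gene, read 2484 with estradiol and 1385 with vehicle at 24 h, and 1086 on the estradiol-labelled and 1414 on the control-labelled array at 6 h, and was 1.79-fold higher at 24 h. Fbln5, needed for elastic fibre assembly, was 1.31-fold lower, and Mgp, an inhibitor of calcification, 1.33-fold lower.

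The small leucine-rich proteoglycans other than Fmod were under 2-fold at 24 h. Lum, lumican, which spaces collagen fibrils, read 2218 with estradiol and 1211 with vehicle at 24 h, and 2558 on the estradiol-labelled and 974 on the control-labelled array at 6 h, and was 1.83-fold higher at 24 h. Dcn, decorin, had 4 probe sets between -0.55 and 0.49 on the log2 scale, 2 on either side of 0. The brightest read 13565 with estradiol and 9686 with vehicle at 24 h, and 10893 on the estradiol-labelled and 8887 on the control-labelled array at 6 h. Bgn, biglycan, was 1.99-fold higher by 1 probe set and 1.46-fold lower by the other. Of the remaining matricellular genes, Spp1, osteopontin, read 186 with estradiol and 37.6 with vehicle at 24 h, and 72.2 on the estradiol-labelled and 142 on the control-labelled array at 6 h, and was at least 1.84-fold higher at 24 h, and Tnc, tenascin-C, was 1.51-fold lower by the 1 of its 3 probe sets that was above the floor on all arrays. Ddr2, a collagen-binding tyrosine kinase, was 1.21-fold higher and 1.36-fold higher at 24 h.

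**Figure D3:**
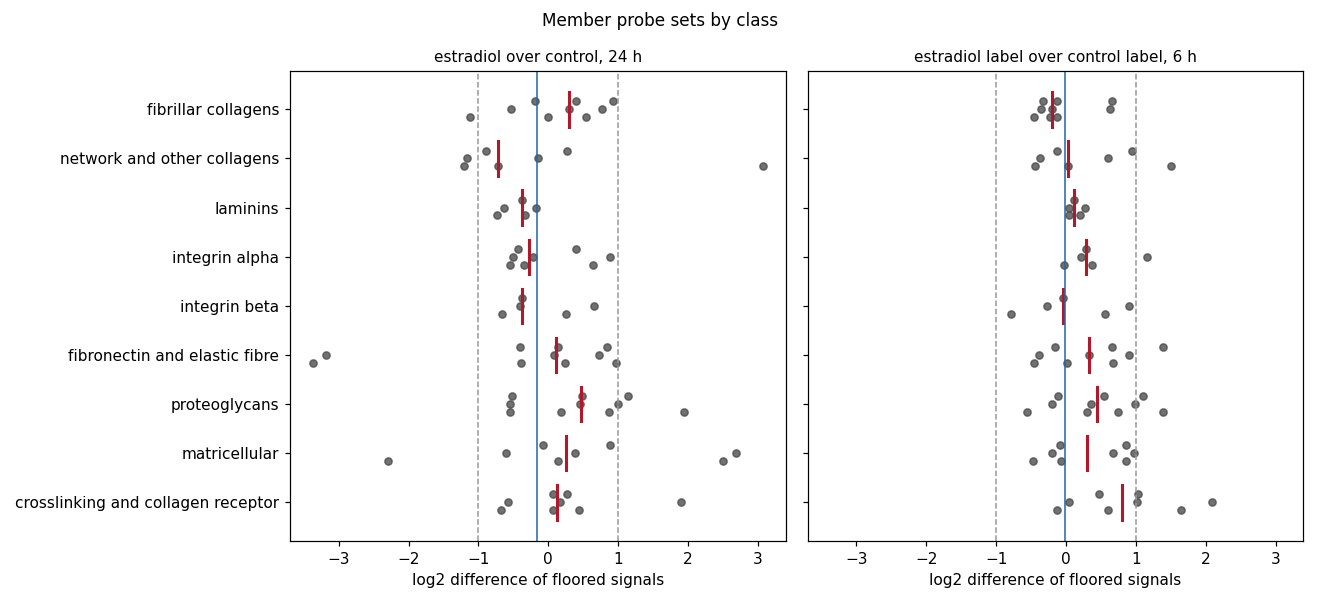
Log2 differences of floored signals for member probe sets above the floor on at least 1 of the 2 arrays compared, by class, for estradiol over control at 24 h (left) and the same labels at 6 h (right). Red bars are class medians, the blue line is the median of all probe sets, dashed lines mark 2-fold, and a value against an array under its floor is a bound. The outlying points at 24 h belong to Col15a1, Efemp1, Postn, Sparc, Spon1, Vcan and Loxl1, while the class medians stay within 2-fold.

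At 6 h the estradiol label was at least 2-fold higher in 9 of 72 probe sets, or 12.5%, against 6.94% of all probe sets, and 0 were lower, against 5.38% of all. Ddr2 led, reading 599 with estradiol and 441 with vehicle at 24 h, and 1193 on the estradiol-labelled and 281 on the control-labelled array at 6 h, which is 4.24-fold higher at 6 h, and its second probe set read 166 with estradiol and 137 with vehicle at 24 h, and 222 on the estradiol-labelled and 82.3 on the control-labelled array at 6 h, which is at least 2.05-fold higher at 6 h, with the control label under the floor. The 1 of 4 Dcn probe sets that passed read 2492 with estradiol and 2187 with vehicle at 24 h, and 2339 on the estradiol-labelled and 1087 on the control-labelled array at 6 h, and was 2.15-fold higher at 6 h. Both Loxl1 probe sets, Col4a5, Itga7, 1 of 2 for Efemp1 and Lum at 2.63-fold made up the rest. The median over members was 0.24 on the log2 scale, against -0.02 over all probe sets. When the 24 h control took the place of that array, 8 members were higher, against 7.13% of all probe sets, and 4 lower, against 2.76%. Of the 9, 3 kept a 2-fold difference in the same direction, those of Ddr2 (2.7-fold higher), Loxl1 (5.63-fold higher) and Lum (2.11-fold higher). For Loxl1 the 24 h control was the lowest of all arrays.

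Matrix members were often lowest on the array labelled control at 6 h, though by less than 2-fold in all but 1 probe set. Of the 56 members above the floor on all arrays, 25 had their lowest signal on that array, or 44.6%, against 23.8% of all 4267 such probe sets. Only 4 had their highest signal there, or 7.14%, against 28.4% of all. These ranks count margins of any size, and some were small, as for Lamc1 and Col12a1. At least 2-fold under each other array on the control label at 6 h was 1 of 72 members, a Dcn probe set. That is 1.39%, against 1.35% of all probe sets, so at 2-fold the members did not stand out on that array. The estradiol array at 24 h was the highest for 21 of the 56 members, or 37.5%, against 21.2% of all probe sets. It was the lowest for 11, or 19.6%, against 36.7% of all. Between the controls, 13 members were at least 2-fold higher at 24 h than at 6 h, or 18.1%, against 8.43% of all probe sets, and 3 were lower, or 4.17%, against 9.45%. The greatest were Col3a1 at 4.56-fold higher and Efemp1 at 4.48-fold higher, each by 1 of 2 probe sets, and Fn1 at 3.36-fold higher by 1 of 5. The 3 lower ones were Col15a1, Itgb7 and the Sparc probe set that was low on the 24 h control alone. This contrast holds the doubted label and a change of scan day. Between the estradiol-labelled arrays, 9 members were higher at 24 h than at 6 h, or 12.5%, against 5.99% of all probe sets, and 6 were lower, against 9.29%.

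The estradiol differences at the 2 times share no array, so their directions can be set side by side. Of the 56 member probe sets, 20 were lower at 24 h and higher at 6 h, and 18 were higher at both. Another 10 were higher at 24 h and lower at 6 h, and 8 were lower at both. Genes with several probe sets count more than once here, and those probe sets are not independent. Lower at 24 h and higher at 6 h were 35.7% of members, near the share over all probe sets, of which 1452 of 4267 had that pattern. Higher at both were 32.1% of members, against 16.0% of all probe sets, and lower at both 14.3%, against 26.6%. Higher at 24 h and lower at 6 h were 17.9% of members, against 23.4% of all. These shares take the 6 h labels as given: with the 6 h labels exchanged, those last values would be the shares higher at both, so the side of the background on which the members lie depends on labels that the 4 estrogen targets contradict. Of the fibrillar collagens, 5 of 9 probe sets, namely 3 of the 4 for Col1a1 and those of Col1a2 and Col5a1, were higher at 24 h and lower at 6 h, by less than 2-fold, a pattern of 23.4% of all probe sets. The opposite pattern past 2-fold at both times was seen for Col4a5 and 1 Efemp1 probe set, and Loxl1 alone, by 1 of its probe sets, was at least 2-fold higher at both.

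**Figure D4:**
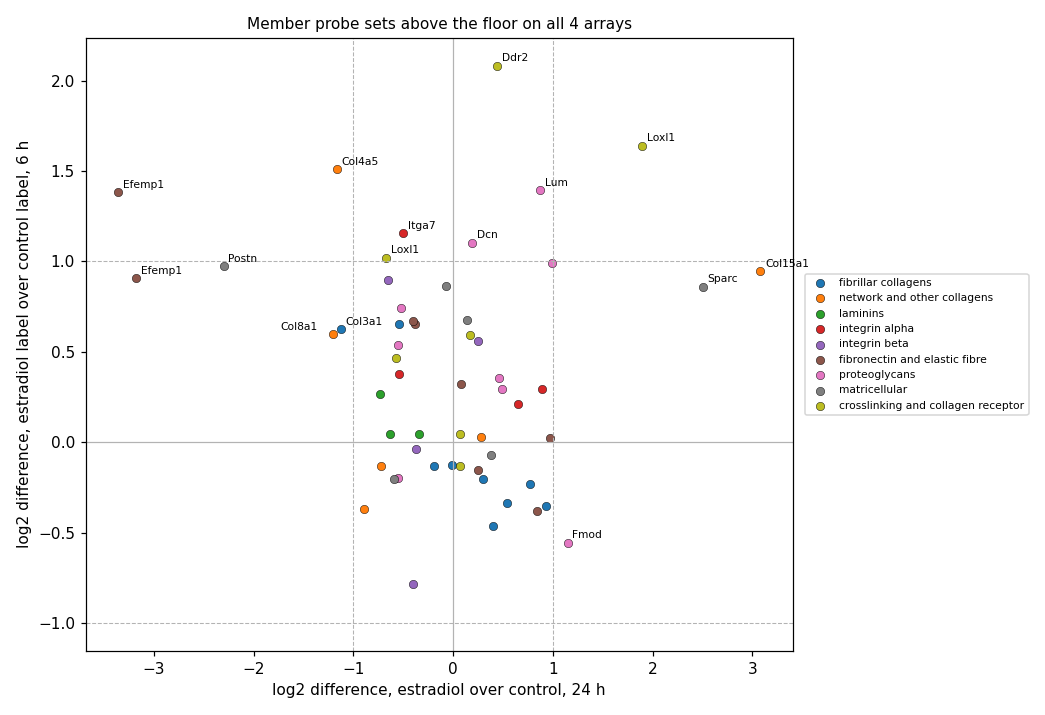
Log2 difference at 6 h (estradiol label over control label) against that at 24 h (estradiol over control) for the 56 member probe sets above the floor on all 4 arrays, coloured by class, with dashed lines at 2-fold and names for probe sets past it at either time. Efemp1, Postn and Col4a5 lie at the upper left, Loxl1, Col15a1 and 1 Sparc probe set at the upper right, and no point lies below -1 at 6 h.

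The only test takes both times together, as a limma fit of treatment with time as a second term and 1 residual degree of freedom. It called 0 of 72 members and 0.0% of all 6157 probe sets at an adjusted p of 0.05, and the lowest adjusted p of a member was 0.999 by limma. At an unadjusted p under 0.05 limma gave 5 of 72 members and 104 of 6157 probe sets in all, the latter 1.69%. These 5 were Loxl1, Col15a1, Sparc and Bgn, each by 1 probe set, and Lum, with limma treatment terms between 0.99 and 2.01 on the log2 scale. The fit takes the 6 h labels as given, and the probe sets of Col15a1, Sparc, Loxl1 and Bgn had their lowest signal on the 24 h control.

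Other genes of the matrix and its attachment were counted from lists, each gene by its brightest probe set. Over all probe sets in that setting, 7.92% were at least 2-fold higher and 8.04% lower at 24 h, and 6.32% and 5.29% at 6 h. Enzymes and chaperones that fold and trim collagen showed 0 of 8 genes past 2-fold at either time. Serpinh1, the collagen chaperone Hsp47, read 11962 with estradiol and 8015 with vehicle at 24 h, and 5420.0 on the estradiol-labelled and 6842 on the control-labelled array at 6 h, and was 1.49-fold higher at 24 h. P4hb, a subunit of the prolyl hydroxylase that stabilises the triple helix, was 1.51-fold higher and Plod1, a lysyl hydroxylase, 1.41-fold higher. In the other direction, Pcolce, an enhancer of procollagen trimming, was 1.2-fold lower and P4ha1, the catalytic subunit of that hydroxylase, 1.05-fold lower. Over the 8 genes the median log2 difference at 24 h was 0.19.

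Of 15 further matrix genes and receptors above the floor, 0 were at least 2-fold higher and 4 lower with estradiol at 24 h. By brightest probe set, 7.92% of all were higher and 8.04% lower. Sparcl1, a relative of Sparc, read 2571 with estradiol and 7584 with vehicle at 24 h, and 9421 on the estradiol-labelled and 5118 on the control-labelled array at 6 h, and was 2.95-fold lower. Gpc3, a membrane-anchored heparan sulfate proteoglycan, was 3.77-fold lower, Cd44, the hyaluronan receptor, 2.14-fold lower and Sdc4, a syndecan of focal adhesions, 2.07-fold lower. Sparcl1 and Gpc3 had the order of arrays seen for Postn, lowest with estradiol at 24 h and highest with the estradiol label at 6 h. At 6 h, 0 of the 15 were higher and 1, Ccn1, was lower. Of basement membrane partners, Agrn, agrin, was 2.26-fold higher with the estradiol label at 6 h, and 0 of 2 genes passed at 24 h.

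Genes of integrin adhesion complexes showed 6 of 15 at least 2-fold higher and 2 lower at 24 h, against 7.92% and 8.04% of all by brightest probe set. Cd151, a tetraspanin partner of laminin-binding integrins, was 4.37-fold higher, Lims1, an adaptor of integrin-linked kinase, 3.96-fold higher, Cd47, an integrin-associated protein, at least 3.92-fold higher and Pxn, paxillin, 3.18-fold higher. These 4 and Cd82 had a 24 h control signal at least 2-fold under all other arrays, so 5 of the 6 were low on that array alone. The sixth, Rhoa, read 1138 with estradiol and 484 with vehicle at 24 h. At 6 h it read 648 on the estradiol-labelled and 1195 on the control-labelled array. Its lowest signal was thus also on the 24 h control. Cd9, another tetraspanin, was 2.98-fold lower and Cav1, of caveolae, 2.29-fold lower. At 6 h, 2 of the 15 were higher, Cd9 and Cd47, and 0 lower.

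Markers of other cells were read beside these values, each gene by its brightest probe set. The shares over all probe sets in that setting were 7.92% higher and 8.04% lower at 24 h, and 6.32% and 5.29% at 6 h. Stroma and fibroblast markers, 10 genes of which Dcn and Lum are also members, summed to 23975 with estradiol and 22300.3 with vehicle at 24 h, and 25438 on the estradiol-labelled and 16360.0 on the control-labelled array at 6 h, with 0 higher and 4 lower at 24 h and 3 higher at 6 h. Macrophage and leukocyte markers, 12 genes including Itgam, summed to 7509 with estradiol and 10616 with vehicle at 24 h, and 8896 on the estradiol-labelled and 11113 on the control-labelled array at 6 h, with 2 higher and 4 lower at 24 h and 1 lower at 6 h. Endothelial markers, 7 genes, summed to 1039 with estradiol and 1810.2 with vehicle at 24 h, and 1392 on the estradiol-labelled and 2071 on the control-labelled array at 6 h, with 0 higher and 2 lower at 24 h and 2 lower at 6 h. Platelet markers, 4 genes including Itga2b and Itgb3, summed to 825 with estradiol and 1453 with vehicle at 24 h, and 1226 on the estradiol-labelled and 1069 on the control-labelled array at 6 h, with 1 lower at 24 h. Schwann cell and nerve markers, 7 genes, summed to 6645 with estradiol and 6904 with vehicle at 24 h, and 5317 on the estradiol-labelled and 11413 on the control-labelled array at 6 h, with Ngfr higher at 24 h and lower at 6 h. The 4 lower stroma markers were Mme, Vcam1, Wt1 and Igfbp3, on the array where Efemp1 and Postn were low, while Dcn and Lum were under 2-fold. Under the floor on all 4 arrays were Itgam, Sele, Gp5, Mbp, S100b, Nefm and Sox10. The part of any of these cells in the matrix results was not tested.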

How the data were processed

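Total RNA was labelled with biotin and hybridised to 4 arrays of type RG_U34A, per the labels and file headers. The authors deposited 1 signal intensity per probe set and array, made with MAS5 per the submitters' processing notes. Its version is not given in the sources used here. Trimming 2% at both ends, column means were 500. Deposited instrument records were read for chip lot, shared scan days and the wash record.

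From these values 59 array controls were left out. Signals were scaled to a trimmed mean of 500, set to no less than the 40th percentile of their array and log2-transformed with Python 3.11.15. Only probe sets with 1 symbol in the platform table were named (7018 of 8799), and all 50 gene identifiers were found in RefSeq with the symbol unchanged. A class median is over probe sets above the floor on at least 1 of the 2 arrays. Treatment over both times was fitted with limma 3.58.1 and Benjamini-Hochberg adjustment over 6157 probe sets. The 2-fold rule and the fit were also run on simulated arrays with correct labels and the same effect at both times. The arrays here may not meet either condition, so nothing is concluded from that run. The number of arrays limits the precision. Members, lists and rules were chosen with earlier results of these data known. Named with all 4 signals were members past the 2-fold rule, those low on the 24 h control alone and the brightest of each class. Of list genes, up to 4 past 2-fold per list were planned, and most were named by fold alone. Others named were chosen after their values were seen. Protein sequences were not used here.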

Additional observations from a re-analysis of the deposited data

Results flagged for a closer look

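For 2 probe sets the estradiol difference passed 2-fold in opposite directions at the 2 times. The log2 difference of the second Efemp1 probe set was -3.36 for estradiol minus control at 24 h and 1.38 for the estradiol label minus the control label at 6 h. That of Col4a5 was -1.17 at 24 h and 1.51 at 6 h. The difference between the times was not tested, since each group has 1 array, and the 6 h direction rests on labels that 4 known estrogen targets go against.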

How the results depend on the processing

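No paired analysis was possible because each group has 1 array and no replicate numbers pair samples; the limma fit holds time as a term. Each count of members is given with the share of all probe sets that passed in that setting. Counts are listed where they differed by more than 1.5-fold from the report, or where a count of 0 changed. Against 6 members higher at 24 h, the count was 17 with a 1.5-fold rule (14.8% of all), 17 against the 6 h control (6.2%), 12 with arrays scaled to a common median (10.2%) and 3 without probe sets of shared or marked sequence, whose names end in _x_at, _s_at, _f_at, _i_at, _g_at or _r_at (8.39%). The passing probe sets of Sparc, Loxl1 and Vcan were among the marked ones left out there. In the other settings the count higher at 24 h also moved. It lay between 4, without probe sets low on the 24 h control alone (5.44%), and 9. The latter was reached with quantile normalization (8.97%) and against the mean of both controls (3.88%). Against 6 lower, the count was 13 with a 1.5-fold (22.6%) and 3 with a 3-fold rule (1.97%). At 6 h, against 9 higher, it was 24 (17.4%) and 2 (2.21%) under these rules, 4 with the brightest probe set per gene (6.32%) and 5 without the marked probe sets (6.79%). Against 0 lower at 6 h, it was 1 with a 1.5-fold rule (14.7%), 4 against the 24 h control (2.76%), 4 with a floor at the 20th percentile (9.9%) and 1 with a pseudocount of 50 (6.33%). Members low on the 24 h control alone, 2 in the report, were 6 (5.36%) and 1 (1.45%) with the 1.5-fold and 3-fold rules, 1 with the brightest probe set (3.28%) and 1 without the marked ones (3.55%). Fewer probe sets enter the last pair of settings by construction. Against the 6 h control the 24 h log2 differences of Col3a1 and Col4a5 turned to 1.06 and 0.0903. Against the 24 h control those at 6 h turned to -0.78 for the second Efemp1 probe set and -0.31 for the second Loxl1 probe set, and against the mean of both controls Efemp1 turned to -0.0704; the cause was not tested. The limma count stayed at 0 in all 9 alternatives run. Signals near the floor limit several calls. The log2 difference with the floor raised to the 60th percentile was -0.13 for Col8a1 at 24 h and 0.0427 for the second Ddr2 probe set at 6 h, both under 2-fold, and 1.51 for Spon1 at 24 h, against 2.69 in the report. With a pseudocount it was -0.89 for Col8a1 and 0.95 for the second Loxl1 probe set at 6 h, and with quantile normalization 0.97 for that Loxl1 probe set. Col3a1, Col4a5, Col8a1, Fmod, Dcn, Ddr2 and Itga7 also had a probe set under 2-fold against another control.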

Other observations

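The probe sets low on the 24 h control alone were of 1 kind more often than the rest. Names beginning with rc_, which the array gives to probe sets designed from expressed sequence tags, made up 147 of these 186 probe sets, or 79.0%, against 2575 of all 6157, or 41.8%. Among matrix members they were 26 of 72, or 36.1%. Of the 6 members whose 24 h control signal was at least 1.5-fold under all other arrays, 5 were of this kind, namely those of Col15a1, Sparc, Itga2b, Loxl1 and Bgn, and the sixth was Itgb7. The other probe sets of Sparc, Loxl1, Bgn and Itgb7 did not have their lowest signal on that array. Among these, the other Loxl1 probe set and some of the other Sparc probe sets also have names beginning with rc_. These counts are descriptions, and no cause was tested.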
